A study of Homo sapiens with 2 samples.

Results

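Isolated peaks are accessible sites that stand alone: no other peak of the same library lies within 300 kb on either side. The distance was measured from edge to edge along the autosomes, and the first and last peak of each chromosome were left out. Jurkat had 552 such peaks among 24437 autosomal peaks, a share of 2.26% (95% exact binomial interval 2.08 to 2.45%). RPMI-8402 had 479 among 23629, a share of 2.03% (1.85 to 2.21%). Together these are 1031 of 48066 peaks. The order of the lines depended on the threshold, and at 200 kb there were 1031 in Jurkat alone and 1100 in RPMI-8402. Peak positions chose them, so their number and their distances are a description.

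Jurkat and RPMI-8402 are established human cell lines of T-ALL, the acute leukaemia that arises from T-cell precursors. The labels give the same serum-supplemented RPMI-1640 medium for both lines and no drug or genetic change. Open chromatin was read by ATAC-seq, in which the transposase Tn5 cuts and tags accessible DNA, with 1 library per line. No replicate error could therefore be given and no difference between the lines was tested. Intervals cover counting error only and treat peaks or fragments as independent. Positions are on hg19, counted from 1.

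Open sites along human chromosomes are clustered around genes and their regulatory elements. Gene deserts are long stretches with few or no genes, often rich in compact, late-replicating chromatin. A site in such a stretch can be the promoter of a remote gene, a distal enhancer, a site of a structural protein such as CTCF, or repeat sequence. The rule finds stretches poor in peaks and uses no gene positions. Whether a stretch is a gene desert, and whether a peak lies in a promoter, exon, intron or UTR, was not analysed here. Nor were the lines checked by marker genes.

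Long peak-free stretches took up much of both genomes. Neighbouring Jurkat peaks were 300 kb or more apart at 2093 of 24415 gaps, and these gaps summed to 1369 Mb, 49.0% of the 2792 Mb between the first and last peaks of the autosomes. In RPMI-8402 there were 2091 such gaps of 23607, summing to 1274 Mb (45.7%). The longest gap lay on chromosome 1 in both lines, at 21052193 bp in Jurkat and 21052417 bp in RPMI-8402. Centromeres and unassembled sequence were not subtracted from these lengths. Of 3631 Jurkat peaks with a long gap on at least 1 side, 15.2% had one on both sides, and in RPMI-8402 12.9% of 3701 did. Of all gaps, 8.57% in Jurkat and 8.86% in RPMI-8402 were that long. Whether long gaps lay side by side more or less often than their number alone would give was not tested.

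Isolated peaks were narrower and shallower than the rest of their list. Their median width was 471 bp in Jurkat, against 616 bp for all other peaks, and 552 bp in RPMI-8402, against 697 bp. The summit pileup, the number of fragments over the highest base, was solved from the authors' fold and p-value. Its median was 19 in Jurkat, against 37 at the other peaks, and 23 in RPMI-8402, against 38. Peaks of pileup 100 or more made up 7.61% of the isolated Jurkat peaks and 19.3% of the others, and 6.68% against 15.1% in RPMI-8402.

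The deposited fold enrichment set isolated peaks less far apart. Its median was 6.83 at isolated and 7.75 at other Jurkat peaks, and 7.10 and 7.27 in RPMI-8402. The isolated median as a share of the whole list's was 0.883 by fold and 0.514 by pileup in Jurkat, and 0.978 and 0.605 in RPMI-8402. The fold divides the pileup by a local background, and that background was lower at isolated peaks, which were also the weaker ones. Its median was 1.87 fragments per base at isolated and 4.03 at other Jurkat peaks, and 2.38 and 4.33 in RPMI-8402. The background was at its lowest, genome-wide value (1.59 in Jurkat and 1.96 in RPMI-8402) for 33.9% of isolated Jurkat peaks against 8.36% of the others. In RPMI-8402 these shares were 30.5% and 9.23%.

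The fall in strength began before the 300 kb threshold. Past it the medians changed little in either line. Jurkat peaks whose nearest neighbour was 30 to 100 kb away had a median pileup of 39, those at 100 to 300 kb one of 26, and those at 300 to 500 kb one of 19. Between 500 and 1000 kb the median was 18, and for the 18 peaks beyond 1 Mb it was 16. In RPMI-8402 the medians were 39, 31, 23 and 24 over the same first 4 bands, and 25 for the 11 peaks beyond 1 Mb. The 3 Jurkat peaks just inside the threshold had nearest distances of 300165, 300423 and 300649 bp and pileups of 17, 105 and 14. The 3 just outside, at 299281, 299097 and 298782 bp, had pileups of 11, 14 and 26. In RPMI-8402 the 3 inside were at 300232, 300276 and 300433 bp with pileups of 21, 14 and 19, and the 3 outside at 298802, 298711 and 298563 bp with 27, 14 and 20. Peaks on both sides of the threshold were thus mostly weak, with 1 exception on the inner side, at chr9:14693073-14693874.

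Fewer isolated peaks than other peaks were found in the other line, and the gap was wider in RPMI-8402. Of the 552 isolated Jurkat peaks, 268 overlapped a RPMI-8402 peak by at least 1 bp, a share of 48.6% (44.3 to 52.8%). Over all autosomal Jurkat peaks the share was 67.2%. Of the 479 isolated RPMI-8402 peaks, 179 overlapped a Jurkat peak, 37.4% (33.0 to 41.9%), and over all autosomal RPMI-8402 peaks the share was 68.6%. On the 16 chromosomes with at least 10 isolated Jurkat peaks, the isolated share was below that of the other peaks on 15, the exception being chromosome 10 (12 of 16, against 66.6%). On the 18 chromosomes with at least 10 isolated RPMI-8402 peaks it was below on 18.

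Weaker peaks overlapped less among the other peaks too, at 25.5% in the weakest and 99.1% in the strongest class of Jurkat, so peaks were compared within 10 classes of equal size. Ranks were by the authors' −log10 q within each list. The median background of other Jurkat peaks rose from 1.97 in the weakest to 11.6 in the strongest class. Class by class, the median fold of isolated peaks was above that of the others in 10 of 10 classes in each line. Their median width was below that of the others in 7 of 10 classes in each line. In Jurkat the isolated share was below that of the others in 9 of 10 classes, though over all classes nearer to it than in RPMI-8402. With the shares of the other peaks in each class, 54.2% would overlap in Jurkat, against the 48.6% observed (44.3 to 52.8%). In RPMI-8402 the same sum gave 59.5%, against 37.4%. In RPMI-8402 the distance was largest at middle strength, and in Jurkat in the ninth class (84.0% of 25, against 98.2%). In the fourth to seventh classes, 71 of 201 isolated RPMI-8402 peaks overlapped a Jurkat peak, 35.3% (28.7 to 42.4%), against 72.4% of the other peaks of those classes. In Jurkat 134 of 205 did, 65.4% (58.4 to 71.9%), against 70.1%. In the seventh class the median pileup of isolated RPMI-8402 peaks was 45, and 39.4% of the 33 overlapped (22.9 to 57.9%), against 88.3% of the others. In the strongest class 28 of 30 isolated RPMI-8402 peaks and 18 of 20 isolated Jurkat peaks overlapped. The interval of the isolated share lay below the share of the other peaks in 8 of 10 classes in RPMI-8402 and in 4 of 10 in Jurkat. A site without a called peak can still be open, and how depth bears on these shares was not tested.

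**Figure D1:**
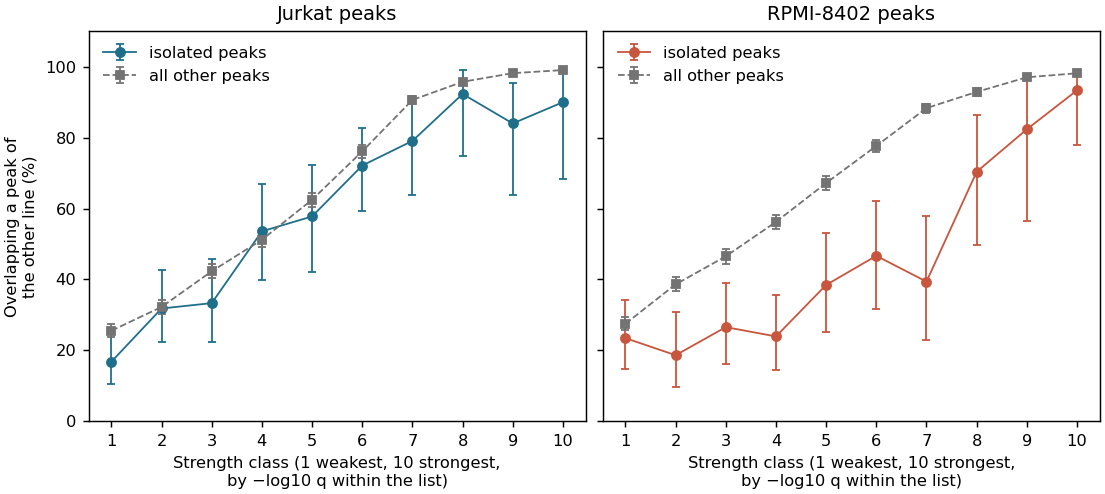
Share of peaks that overlap a peak of the other line (vertical axis, percent) by strength class (horizontal axis, 1 weakest to 10 strongest by −log10 q), for isolated peaks (coloured circles) and all other peaks (grey squares). Bars are 95% exact binomial intervals. In the fourth to seventh classes the Jurkat curves lie nearer to each other than the RPMI-8402 curves. The isolated Jurkat peaks are the lower in 9 of 10 classes. In RPMI-8402 the isolated peaks reach 39.4% in the seventh class and the other peaks 88.3%.

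Each isolated peak stood in 1 of 4 relations to the other line. In 74 places a peak was isolated in both lines, 13.4% of the isolated Jurkat and 15.4% of the isolated RPMI-8402 peaks. At a further 194 Jurkat and 105 RPMI-8402 isolated peaks, the overlapping peak of the other line was not isolated there. No overlap, but a peak of the other line within 300 kb, was found for 173 Jurkat and 148 RPMI-8402 isolated peaks. No peak of the other line within 300 kb was found for 111 isolated Jurkat peaks, 20.1% (16.8 to 23.7%), and for 152 isolated RPMI-8402 peaks, 31.7% (27.6 to 36.1%). Over all autosomal peaks that relation held for 1.17% in Jurkat and 2.33% in RPMI-8402. Peak spacing chose these sites, so nothing is read from that comparison.

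Overlapping isolated peaks were the stronger ones. In Jurkat the median pileup was 31.5 at sites isolated in both lines and 33 where the partner was not isolated, against 15 in both groups without overlap. In RPMI-8402 these medians were 33, 34, 19 and 21 in the same order. Median widths ran alike, at 603, 592.5, 404 and 380 bp in Jurkat and 668.5, 686, 479.5 and 529 bp in RPMI-8402. A pileup of 50 or more without overlap was reached by 12 isolated Jurkat peaks, 5 with and 7 without another peak within 300 kb. In RPMI-8402 there were 17, of which 6 had and 11 lacked one. With overlap, it was reached in Jurkat by 25 peaks isolated in both lines and 56 whose partner was not isolated. In RPMI-8402 these numbers were 24 and 40. The share without overlap among all peaks of that pileup is not given, so these numbers are a description. Called peaks had pileups of at least 9 (Jurkat) and 10 (RPMI-8402), and the medians of 15 to 21 without overlap lie near those lowest values.

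**Figure D2:**
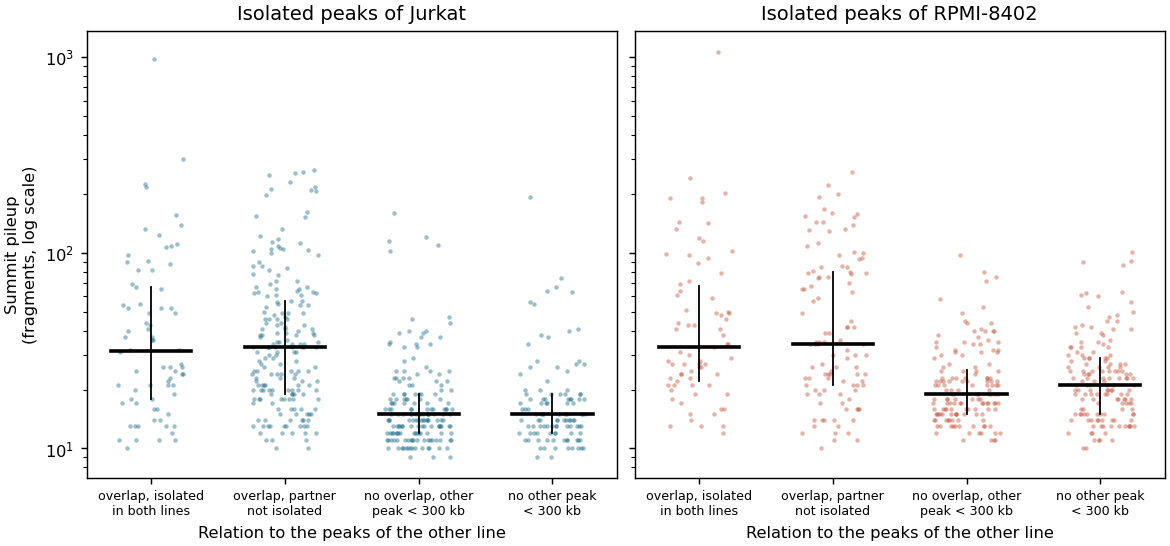
Summit pileup (vertical axis, fragments, log scale) of each isolated peak, grouped by its relation to the peaks of the other line, with Jurkat on the left and RPMI-8402 on the right. Points are peaks, thick lines medians and thin lines the 25th to 75th percentile. The medians with overlap are 31.5 and 33 in Jurkat and 33 and 34 in RPMI-8402, and those without overlap 15 and 15, and 19 and 21.

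The 74 sites isolated in both lines were spread over 20 chromosomes. Both pileups were 100 or more at 7 of them and both were under 30 at 24. The RPMI-8402 peak was the wider at 49 and had the higher pileup, unscaled, at 38 (66.2% and 51.4%). Over all overlapping pairs these shares were 56.6% and 38.3%, and the narrowest peak of the list was 261 bp in Jurkat and 309 bp in RPMI-8402. At 21 of the 74 the nearest distances in the lines differed by no more than 1 kb. Such sites can bound each other, as in an example chosen after its values were seen: chr7:78191266-78191969 and the next Jurkat site, starting at 78700815, were 508845 bp apart in Jurkat and 508856 bp apart in RPMI-8402. Pileups at this pair of sites were 26 and 11 for Jurkat, and 29 and 15 for RPMI-8402.

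The strongest site isolated in both lines was unlike the others. At chr6:58776291-58779438 the Jurkat peak was 3148 bp wide, the widest isolated peak of the list, and the RPMI-8402 peak, 3110 bp wide, was the widest of its own. The pileups were 983 in Jurkat and 1068 in RPMI-8402, but the backgrounds were 225 and 274 fragments per base. The fold was therefore only 4.36 and 3.89. A gap of 3133469 bp followed it in Jurkat and one of 3133490 bp in RPMI-8402. Peaks were not filtered against known artefact-prone regions, and the source of this signal was not tested.

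The next strong sites had Jurkat backgrounds of 10.2 to 13.98 fragments per base, far below that site's but above the 4.03 median of other Jurkat peaks. At chr6:121655475-121656190 Jurkat had a pileup of 300 (95% Poisson interval 267 to 336) and RPMI-8402 one of 240 (211 to 272). The Jurkat fold there, 22.5, was the highest of all isolated Jurkat peaks, and the RPMI-8402 fold, 17.8, the highest of all isolated RPMI-8402 peaks. Jurkat had no other peak for 462125 bp before and 624449 bp after this site, and RPMI-8402 none for 333489 and 316074 bp. At chr20:20692943-20693911 the pileups were 218 in Jurkat and 132 in RPMI-8402, with nearest neighbours 389509 and 412400 bp away. At chr4:20701632-20702328 they were 225 and 144, and at chr14:66974214-66975216 they were 156 and 115. These 4 sites all had the higher pileup in Jurkat, unscaled, but they were ranked by −log10 q in Jurkat, which favours that direction. With RPMI-8402 to Jurkat ratios centred on the median of all overlapping pairs, the interval included 1 at chr6:121655475 (0.759 to 1.07) and chr14:66974214 (0.648 to 1.07). It lay below 1 at the sites on chromosomes 20 and 4.

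Ranked by −log10 q in RPMI-8402, the sites isolated in both lines began with the same 2 sites on chromosome 6, followed by sites on chromosomes 8, 1 and 6. At chr8:75896367-75897546 the pileup was 202 in RPMI-8402 and 31 in Jurkat. At chr1:176175768-176176982 it was 191 and 133, and at chr6:114663538-114664987 it was 191 and 98. These 3 sites had the higher pileup in RPMI-8402, the direction that this ranking favours. The remaining widest isolated peaks were on chromosomes 6, 11 and 18. The Jurkat peak at chr6:147523599-147525573 was 1975 bp wide with a pileup of 114. At chr11:115373949-115375753 the RPMI-8402 peak was 1805 bp wide with a pileup of 98, and its Jurkat partner 899 bp wide with a pileup of 36. At chr18:25756674-25758178 the Jurkat peak was 1505 bp and the RPMI-8402 peak 1795 bp wide, with pileups of 52 and 99.

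Isolated peaks with no peak of the other line within 300 kb were led in Jurkat by chr3:85553376-85554393, with 193 fragments at its summit (167 to 222) and 15.7-fold enrichment. The stretch around it was shared in part. Jurkat had further peaks starting at 84596969, 85007609, 85181960 and 85202330, with pileups of 37, 203, 27 and 46. RPMI-8402 had peaks at the first 2 of these, with pileups of 32 and 260, and then none for 1244901 bp. The 260-fragment RPMI-8402 peak, chr3:85007607-85008788, was thereby isolated, while its Jurkat partner was not. Thus 3 Jurkat peaks, the strongest of pileup 193, lay in 1 peak-free gap of RPMI-8402.

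The other 4 of the 5 strongest Jurkat peaks of this kind were weaker, with pileups of 63 to 74. They were chr5:105758989-105759632 (pileup 74), chr15:36871432-36872277 (64), chr21:23793330-23794275 (63) and chr1:2949330-2949942 (67). From these, the nearest RPMI-8402 peak was 300860, 521211, 675605 and 319986 bp off, so the first barely met the distance. In RPMI-8402 the first was chr14:79745222-79746191, with 101 fragments (82.3 to 123), 13.5-fold enriched and 445016 bp from the nearest Jurkat peak. It stood little above the next, which were chr7:122526248-122527149 (pileup 91), chr7:82072450-82073676 (87), chr8:76319217-76320541 (90) and chr4:34704173-34704770 (60). From these, the nearest Jurkat peak was 646901, 414685, 422030 and 335518 bp off. In the strongest class of each list, 2 isolated peaks lacked an overlap. Besides chr3:85553376-85554393 and chr14:79745222-79746191 these were the Jurkat peak chr1:74663449-74664238 (pileup 159) and the RPMI-8402 peak chr3:94839762-94840439 (98), whose nearest peaks of the other line were 159172 and 246187 bp away.

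The long stretch around a site isolated in one line could hold several peaks of the other. The stretch between the neighbours of an isolated Jurkat peak held a median of 3 complete RPMI-8402 peaks (25th to 75th percentile 1 to 5) and at most 16. Around isolated RPMI-8402 peaks the median was 2 Jurkat peaks (1 to 3) and the most 18. No peak of the other line was found in the stretch for 53 isolated Jurkat peaks (9.60%) and 90 isolated RPMI-8402 peaks (18.8%). A number of 10 or more was reached around 18 Jurkat and 8 RPMI-8402 isolated peaks. Merged, these stretches covered 639 of 2792 Mb in Jurkat and 555 of 2791 Mb in RPMI-8402, between the first and last peaks of the autosomes. They had 317 Mb in common, 49.7% of the Jurkat and 57.2% of the RPMI-8402 length. What overlap these lengths alone would give was not tested.

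The fullest stretches, chosen after their values were seen, were on chromosomes 14, 9, 6 and 5. Here 3 isolated Jurkat peaks had 16 RPMI-8402 peaks around them. At chr14:48754288-48754967 the Jurkat peak had a pileup of 29 and no overlap, in a stretch of 3.92 Mb whose RPMI-8402 peaks had pileups of 12 to 98. At chr14:34419824-34420318 the pileup was 21, with a RPMI-8402 partner of 48 and 9 RPMI-8402 peaks within 300 kb. At chr9:23590618-23590904 the pileup was 12, with a partner of 20, in a stretch of 3.91 Mb with RPMI-8402 pileups of up to 126. At chr14:44272499-44272939, with 15 RPMI-8402 peaks in 5.46 Mb, the pileup was 34 in Jurkat and 153 in RPMI-8402. In the other direction, the RPMI-8402 peak chr6:102865195-102865876 had 18 Jurkat peaks in its stretch of 3.69 Mb. Its pileup was 35, against 155 in its Jurkat partner, while the median of the 18 was 13. The RPMI-8402 peak chr5:25713457-25713778, of pileup 14 and with a partner of 23, had 13 Jurkat peaks in 3.99 Mb, with pileups of 10 to 47. The RPMI-8402 peak chr6:100676613-100677347 had 12 Jurkat peaks in 0.896 Mb, with pileups of 12 to 31, and 11 were within 300 kb. Elsewhere few were that near: 2 at chr14:48754288 and chr9:23590618, and 3 at chr14:44272499, chr6:102865195 and chr5:25713457. Whole chromosomes 14 and 9 held 8.53 and 7.46 RPMI-8402 peaks per Mb, and chromosomes 6 and 5 held 8.87 and 7.55 Jurkat peaks. Each stretch but the last named thus held fewer per Mb than its chromosome. The median pileup of the other line's peaks was 13 to 34.5 over these stretches. The strongest of them was not always the partner, as the 126 at chr9:23590618-23590904, against a partner of 20, shows.

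**Figure D3:**
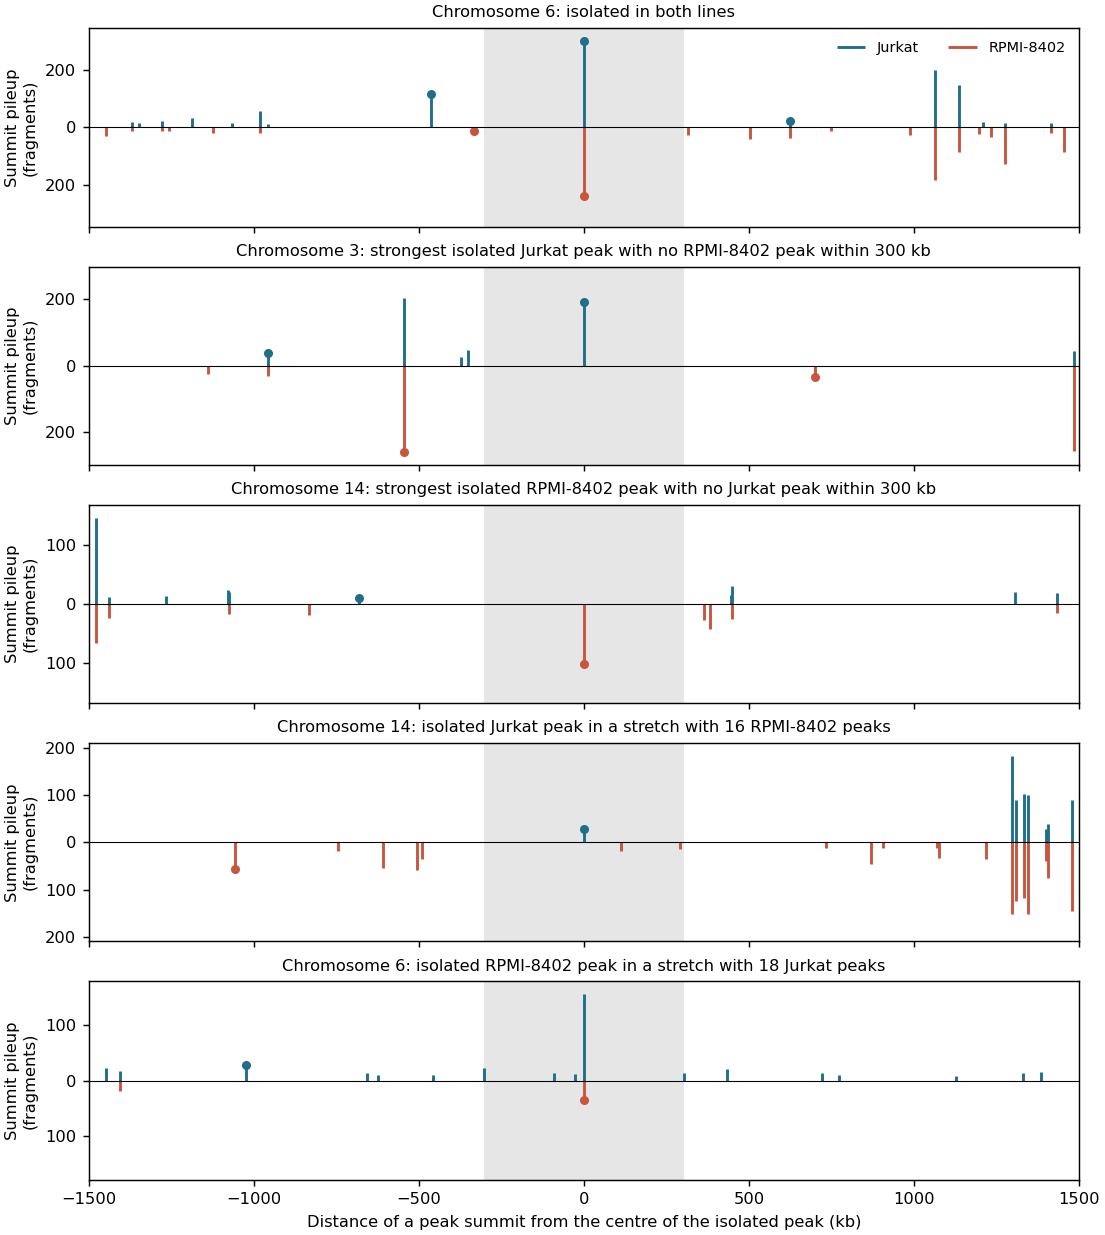
Peaks of Jurkat (upward) and RPMI-8402 (downward) around 5 isolated peaks. The horizontal axis is the distance of a summit from the centre of the isolated peak in kb, the vertical axis the summit pileup in fragments, dots mark isolated peaks, and grey bands span 300 kb on either side. In the top panel the central peak is found in both lines (300 and 240), and in the next 2 panels the central peak (193 and 101) is found in 1 line. The lower 2 panels show part of stretches that hold 16 RPMI-8402 and 18 Jurkat peaks.

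The peaks with the largest distances had pileups of 12 to 62. In Jurkat the largest nearest distances were 1680988 bp at chr14:86400583-86401381 (pileup 46), 1433052 bp at chr21:25341046-25341585 (62) and 1412919 bp at chr9:23590618-23590904 (12). All 3 overlapped a RPMI-8402 peak that was not isolated, with pileups of 44, 246 and 20. In RPMI-8402 they were 2257675 bp at chr13:55983995-55985302 (pileup 28), 2180285 bp at chr6:61912920-61913518 (57) and 1761681 bp at chr13:65835262-65835720 (13). Only the one on chromosome 6 overlapped a Jurkat peak, of pileup 69.

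Isolated peaks could follow one another. In Jurkat 281 of the 552 (50.9%) were next to another isolated peak, and in RPMI-8402 223 of 479 (46.6%). By the rule, each neighbour of an isolated peak already has 1 long gap. Of all peaks with a long gap on at least 1 side, 15.2% in Jurkat and 12.9% in RPMI-8402 were isolated. What share the rule alone would give was not tested, so these numbers are a description. Chains of 4 or more numbered 19 in Jurkat, against 10 for RPMI-8402, and the longest held 6 peaks in each line. Jurkat had 4 chains of 6, on chromosomes 1, 2, 7 and 11, and RPMI-8402 had 2, on chromosomes 5 and 13. Of these chains, 3 are described, chosen after their values were seen. The chain at chr1:103337851-107260652 held Jurkat peaks of pileup 11 to 82, and 3 of its 6 were isolated in RPMI-8402 as well. The chain at chr5:25119357-31059211, 5.94 Mb long, held RPMI-8402 peaks of pileup 14 to 25, and Jurkat had 15 peaks there. At chr13:83727939-87887579 the 6 RPMI-8402 peaks had pileups of 21 to 65, and Jurkat had 15 peaks there too.

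Isolated peaks were unevenly spread over the chromosomes. Chromosome 5 held the most in Jurkat, with 50, and chromosome 2 in RPMI-8402, with 43. Relative to the peaks of a chromosome, chromosome 13 came first in both lines. There, 31 of 641 Jurkat peaks were isolated, 4.84% (3.31 to 6.79%), and in RPMI-8402 33 of 420, 7.86% (5.47 to 10.9%). Chromosome 18 followed with 3.77% and 4.45%. At the other end, chromosome 19, known for its dense genes, had 2 isolated of 1118 Jurkat and 5 of 1053 RPMI-8402 peaks (0.179% and 0.475%), and chromosome 22 had 1 of 368 in RPMI-8402 (0.272%). Peak density differed too: chromosome 13 had 6.70 Jurkat and 4.42 RPMI-8402 peaks per Mb, and chromosome 19 had 18.9 and 17.9. Density did not order the chromosomes alike, as chromosome 21, with 6.55 and 6.52 peaks per Mb, had isolated shares of 1.98% and 1.99%.

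The lines differed most in number on chromosomes 3 and 4. Chromosome 3 held 41 isolated Jurkat and 24 isolated RPMI-8402 peaks (2.50% and 1.30% of its peaks), and chromosome 4 held 49 and 33 (3.65% and 2.12%). Chromosome 9 had 28 and 15 (2.70% and 1.43%). On chromosome 15 Jurkat had fewer, 9 against 16 (1.19% and 2.67%). The intervals of the lines overlapped on each of these 4 chromosomes, and on chromosome 3 they were 1.80 to 3.38% and 0.832 to 1.92%. On chromosome 13, 14 of the 31 isolated Jurkat peaks had no RPMI-8402 peak within 300 kb. Of the 33 isolated RPMI-8402 peaks there, 5 had no Jurkat peak that near. The chromosome held 641 Jurkat but 420 RPMI-8402 peaks. The same shares over all its peaks are not given, so nothing is read from these numbers.

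**Figure D4:**
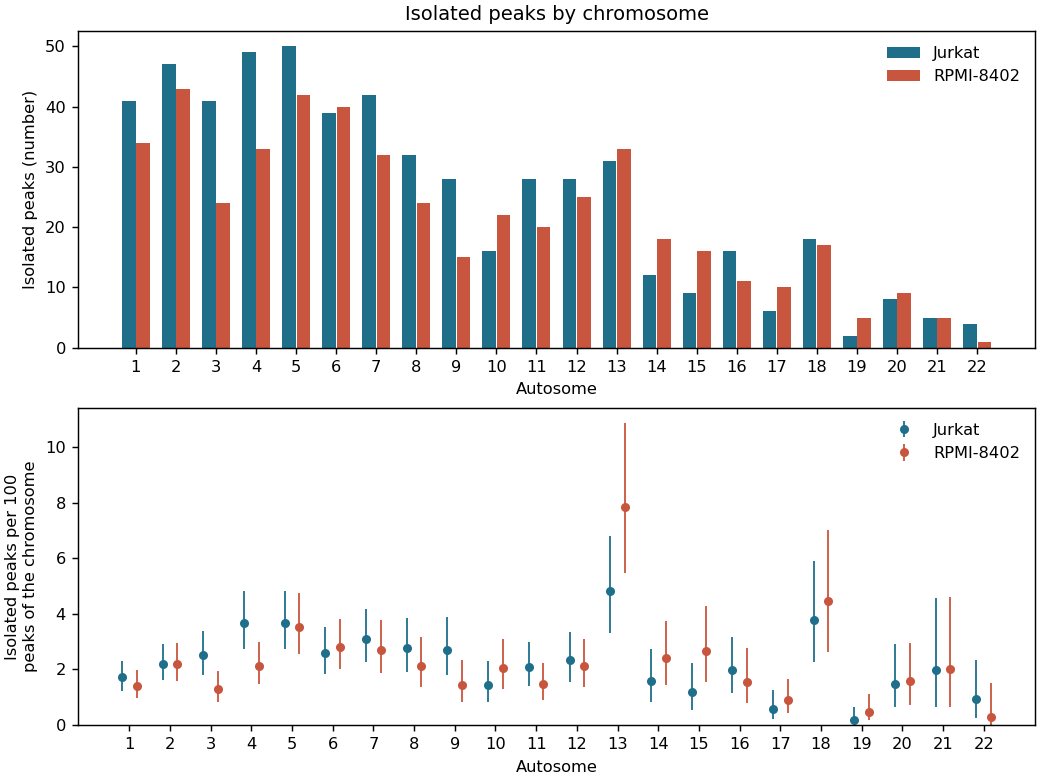
Number of isolated peaks on each autosome (upper panel, bars) and number per 100 peaks of that autosome (lower panel, points with 95% exact binomial intervals), for Jurkat and RPMI-8402. Chromosome 13 is highest in the lower panel, with 4.84 in Jurkat and 7.86 in RPMI-8402, and chromosome 19 is among the lowest.

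Where both lines had a peak, fewer pairs at isolated sites than elsewhere had pileups within 2-fold after centring. One Jurkat peak overlapped exactly 1 RPMI-8402 peak in 15948 autosomal pairs, and 372 of these were isolated in at least 1 line. Ratios of RPMI-8402 to Jurkat pileup were centred on the median of all pairs. Of the 372 pairs, 68.3% lay within 2-fold, against 86.3% of the pairs isolated in neither line. A pileup at least 2-fold higher in RPMI-8402 was found in 91 pairs, 24.5% (20.2 to 29.2%), against 9.11% of all pairs. One at least 2-fold higher in Jurkat was found in 27 pairs, 7.26% (4.84 to 10.4%), against 4.97% of all pairs. Scaled by each library's genome-wide background in place of the median, which moves the log2 median over all pairs to −0.48, 50 pairs (13.4%) were 2-fold higher in RPMI-8402 and 56 (15.1%) in Jurkat. Over all pairs the shares were then 3.18% and 18.9%. Which line had more such pairs thus depended on the scaling, while the isolated share was above that of all pairs for RPMI-8402 under both. For Jurkat it was above that of all pairs by the median and below it by the genome-wide background. By the deposited fold, centred likewise, 21 pairs (5.65%) were higher in RPMI-8402 and 4 (1.08%) in Jurkat, against 1.34% and 0.326% of all pairs.

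With median centring, the shift towards RPMI-8402 was largest in pairs isolated in Jurkat only. The median centred log2 ratio was 0.55 for the 194 pairs isolated in Jurkat only, 0.23 for the 74 isolated in both and −0.02 for the 104 isolated in RPMI-8402 only. Scaled by the genome-wide background these medians were 0.07, −0.24 and −0.49. With median centring, 60 of the 194 pairs isolated in Jurkat only (30.9%) were 2-fold higher in RPMI-8402 and 6 (3.09%) in Jurkat. Of the 104 isolated in RPMI-8402 only, 15 (14.4%) were 2-fold higher in RPMI-8402 and 14 (13.5%) in Jurkat. Over all pairs these shares were 9.11% and 4.97%. Peak calls of one line chose the pairs, so these directions are a description. Isolated pairs were also weaker, with median pileups of 33 in Jurkat and 39 in RPMI-8402 against 60 and 54 in pairs isolated in neither. Among pairs with a geometric mean pileup under 40, the isolated and other pairs were nearer, with 72.4% of 203 and 79.7% of 5533 within 2-fold. Of these, 23.6% of the isolated pairs were 2-fold higher in RPMI-8402, against 14.4% of the others, while 3.94% and 5.87% were 2-fold higher in Jurkat. Summits lay a median of 69 bp apart in isolated pairs and 67 bp apart in the others.

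**Figure D5:**
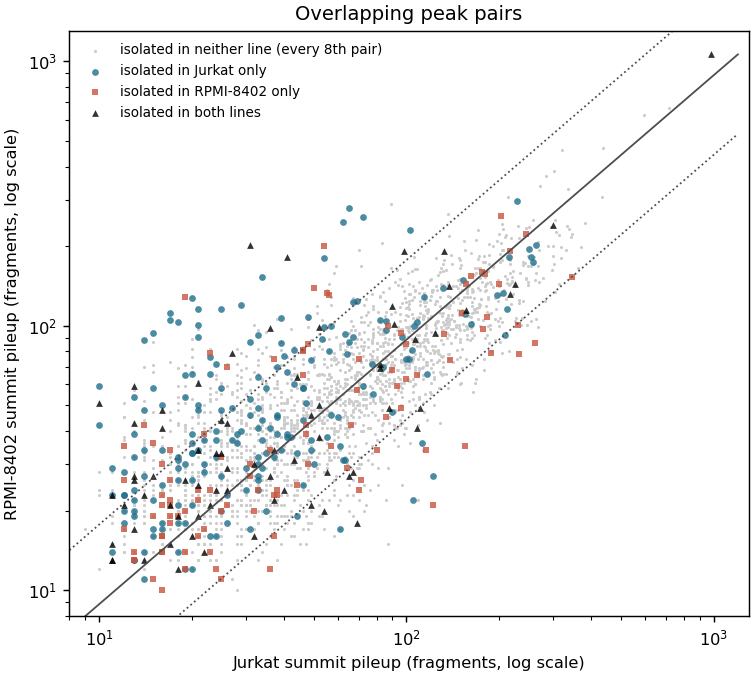
Summit pileup in Jurkat (horizontal axis) and RPMI-8402 (vertical axis), in fragments on log scales, at overlapping peak pairs. The solid line is the median ratio of all pairs and the dotted lines are 2-fold on either side. More isolated pairs lie above the upper dotted line (91) than below the lower one (27) under this centring. Pairs isolated in Jurkat only (194) outnumber those isolated in RPMI-8402 only (104).

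The 3 largest pileup ratios in each direction among isolated pairs, picked once all ratios were known, came from chromosomes 8, 4, 2, 9 and 5. At chr8:115934146-115934801 the RPMI-8402 pileup was 129 and the Jurkat pileup 19, a centred ratio of 7.67 (4.71 to 13.1). At chr4:94749430-94750618 they were 112 and 17, a ratio of 7.44 (4.44 to 13.2), and the RPMI-8402 peak was 1189 bp wide against 462 bp in Jurkat. At chr8:75896367-75897546, isolated in both lines, they were 202 and 31, a ratio of 7.36 (5.02 to 11.1). Jurkat was the higher at chr2:181844798-181845554, with 122 fragments and 21 in RPMI-8402, and the Jurkat to RPMI-8402 ratio was 5.15 (3.22 to 8.61). At chr9:14693073-14693874 the pileups were 105 and 22, a ratio of 4.23 (2.65 to 7.03), and at chr5:157861991-157862772 they were 122 and 27, a ratio of 4.0 (2.62 to 6.32).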

How the data were processed

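ATAC-seq peak lists of 2 cell lines were used, with 1 library per line. Per the submitters' processing notes, the tools were MACS2 2.1.1.2016030, Bowtie2, SAMtools and Picard, and the build hg19. Parameters and read totals: not given in the sources used here. For each peak the authors deposited positions with a summit offset (other columns), a score, a fold enrichment, and −log10 of a p-value and a q-value. These deposited values are the authors' own. The fold was used as deposited and −log10 q for ranking.

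Pileup and background were solved from the fold, taken as their ratio after adding 1 to each, and from a Poisson upper tail for the p-value. All pileups were within 0.01 of a whole number. Overlap meant at least 1 bp (scipy 1.17.1, pandas 2.3.3 and numpy 2.4.6 under Python 3.11.15; figures, matplotlib 3.10.9), checked against bedtools 2.31.1. Isolation and solving were tested on simulated data. Intervals are exact binomial, Poisson or conditional binomial, at 95%.

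Members, lists and alternatives were chosen with earlier results of these data known. Regions named are, per line, the 5 isolated peaks with the highest −log10 q that are isolated in both lines, the 5 with no peak of the other line within 300 kb, the 3 with the largest nearest distance, the 3 widest, and the 3 on either side of the threshold. All other named regions, chains and pairs were chosen after their values were seen, as was the listing of unshared peaks of the strongest class. No hg19 genome or annotation was used, so sequences and genes are not given.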

Additional observations from a re-analysis of the deposited data

Results flagged for a closer look

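Chromosome X was left out of the comparisons, and both lists held isolated peaks there by the same rule. Jurkat had 57 among 693 peaks of the chromosome (8.23 per 100) and RPMI-8402 had 40 among 949 (4.21 per 100). There is no control sample to set them against. Median widths were 555 and 660.5 bp and median folds 9.09 and 7.85.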

How the results depend on the processing

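Of 78 alternative values, 36 moved and 42 stayed within their intervals or 1.5 times the number. Numbers of isolated peaks were 1031 in Jurkat and 1100 in RPMI-8402 at 200 kb, and 167 and 132 at 500 kb. They were 185 and 226 with peaks of the other line counted as neighbours, 599 and 624 among peaks of −log10 q of at least 10, and 262 and 302 at a pileup of 20 or more. RPMI-8402 thus had the larger number in 4 of these 5 settings. Jurkat had the larger number in the main setting (552 against 479) and in the settings that changed the numbers little. These were 558 against 481 with peaks closer than 1 kb joined and 521 against 446 without chromosome 13. Without peaks of pileup 300 or background 50 or more, the numbers were 550 and 478. Among peaks of −log10 q of at least 10, median widths were 621 and 663 bp, median folds 9.18 and 8.35, and overlap shares 63.1% and 43.75%. At a pileup of 20 or more, a setting chosen after seeing the data, widths were 639 and 660.5 bp, folds 10.021 and 8.34 and shares 75.2% and 47.4%. Counting peaks of the other line as neighbours gave a Jurkat width of 435 bp, a Jurkat fold of 6.29 and shares of 40% and 32.7%. RPMI-8402 had a width of 582.5 bp and a share of 44% at 200 kb, and a fold of 7.443 at 500 kb. Requiring 50% of both peaks gave a Jurkat share of 41.7%. Pileup in place of fold had medians of 19 and 23. Pairs at least 2-fold higher in Jurkat were 56 by background scaling and 4 by the deposited fold (15.1% and 1.08%, against 18.9% and 0.326% of all pairs), and in RPMI-8402 50 and 21 (13.4% and 5.65%, against 3.18% and 1.34%). Per 100 peaks, chromosome 13 came first in both lines.

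No paired analysis was possible because there was a single library for either line, and there was no replicate to leave out. Sequence comparisons were not run. Peaks weaker than a pileup of 9 in Jurkat or 10 in RPMI-8402 were not called, which limits statements on absence.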

Other observations

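The 44 first and last peaks of the 22 autosomes were left out in each line. Of these, 3 in Jurkat and 2 in RPMI-8402 had no other peak within 300 kb on their single inner side.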
